A study of Homo sapiens with 6 samples.

Results

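The genes described here carry iron into the cell, store it, release it from the store, export it and sense it. They were chosen by gene symbol, from the known roles of their proteins, by a rule that uses no measured value, although earlier results of these data were known when the list was made. They make up 10 of the 19470 genes in the count table. Storage is represented by FTH1 and FTL, uptake by TFRC, SLC11A2, SLC39A14 and STEAP3, export by SLC40A1, release from ferritin by NCOA4, and regulation by IREB2 and ACO1. RNA was sequenced from HCCC9810, an established human cholangiocarcinoma (CCA) cell line of wild type genotype. Controls (3 libraries) received the vehicle DMSO for 24 h, and the treated group (3 libraries) received 20 μM isolinderalactone (ILL), a plant sesquiterpene lactone, for 24 h. The labels do not say whether the libraries of a group came from separate cultures. The p-values therefore set the group difference against a spread between libraries that may be only technical. Results from 1 cell line do not extend to other lines.

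Animal cells take up transferrin-bound iron through the transferrin receptor, reduce it in the endosome, move it to the cytosol and keep the surplus inside ferritin, a shell of heavy and light chains. The iron regulatory proteins bind a short RNA hairpin, the iron-responsive element, when free iron is scarce. Bound in the 5′ UTR of an mRNA they block its translation, and bound in the 3′ UTR of the transferrin receptor mRNA they protect it from decay. Free iron also feeds lipid peroxidation, the reaction behind the form of cell death called ferroptosis.

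The iron-responsive elements are shown for the ferritin chains, the exporter and the transferrin receptor. In the scheme above, those in a 5′ UTR act on translation and those of the transferrin receptor mRNA act on its decay. Such control was not measured here. Each sequence is the sense strand of the GENCODE 29 transcript, written in DNA letters 5′ to 3′, with coordinates on GRCh38, and the capitals mark the hairpin loop. The ferritin and SLC40A1 elements lie in 5′ UTR exons and the 5 TFRC elements in the 3′ UTR.
FTH1, chr11:61967574-61967603, minus strand: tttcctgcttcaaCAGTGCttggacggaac
FTL, chr19:48965334-48965363, plus strand: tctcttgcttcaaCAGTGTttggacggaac
SLC40A1, chr2:189580661-189580690, minus strand: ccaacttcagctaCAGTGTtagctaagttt
TFRC element 1, chr3:196051029-196051058, minus strand: tatttatcagtgaCAGAGTtcactataaat
TFRC element 2, chr3:196050979-196051008, minus strand: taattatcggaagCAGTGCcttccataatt
TFRC element 3, chr3:196050575-196050604, minus strand: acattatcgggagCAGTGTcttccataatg
TFRC element 4, chr3:196050510-196050539, minus strand: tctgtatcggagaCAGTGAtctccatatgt
TFRC element 5, chr3:196050463-196050492, minus strand: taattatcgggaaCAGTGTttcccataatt

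The search pattern was a C, a stem of 5 base pairs with G-T pairs allowed, a loop of CAGTGN or CAGAGN whose last base was not G, and at least 4 of 5 pairs in the lower stem. Of 19669 protein-coding genes, 39 or 0.198% held this pattern anywhere in a protein-coding transcript. Apart from SLC39A14, 5 members held it. The one of them not printed above is STEAP3, with a match in the 3′ UTR of 2 of its 4 coding transcripts. For the members, matches on chromosome 8, where SLC39A14 lies, were left out, so whether SLC39A14 held the pattern is not given. The 39 genes were counted without this exclusion. A match is a description of the letters and does not show that the hairpin works. The SLC40A1 match lay in 1 of 5 coding transcripts, the FTH1 match in 7 of 8, the FTL match in 1 of 1 and the TFRC matches in 3 of 4. Counts per gene do not separate transcripts with the element from those without it.

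After 24 h with ILL, the mRNAs of both ferritin chains and of the iron exporter were higher, and the mRNA of the transferrin receptor was lower. The heavy chain FTH1 rose 2.46-fold, the light chain FTL 1.78-fold and SLC40A1, the only known cellular iron exporter, 2.92-fold from a very low level. TFRC fell by 0.98 on the log2 scale, so that the control level was 1.97 times the ILL level. ACO1, an iron regulatory protein that also serves as the cytosolic aconitase, fell by 0.86 on the log2 scale, whereas NCOA4, the receptor that delivers ferritin to the lysosome, did not pass the test.

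Total counts ranged from 34282764 to 37758569 per library, and the 10 genes with the most counts took 5.20 to 5.45% of them in controls and 8.12 to 8.25% with ILL. Of 8 biliary epithelial markers 7 reached 1 CPM (a count scaled to a common library total) in every library, and their summed level was 9050 to 9292 CPM in controls and 9531 to 10120 CPM with ILL. Within that sum CDH1, KRT7 and EPCAM were called higher and KRT19, SOX9, KRT8 and KRT18 lower, with the largest fold change of these 7 in CDH1 (E-cadherin), at a mean of 247 CPM in controls and 1036 CPM with ILL. For other cell types this held for 2 of 6 hepatocyte, 2 of 5 fibroblast, 0 of 4 endothelial and 1 of 6 blood and macrophage markers. The last was CD68, a lysosomal protein that epithelial cells also make, and the summed level of that list was 36.7 to 40.9 CPM in controls and 112 to 117 CPM with ILL. The defining leukocyte marker PTPRC had 0 to 9 counts, and the macrophage marker CD163 had 0 to 1.

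Levels between libraries are given as normalized CPM, that is CPM after TMM scaling of library sizes, and each log2 fold change compares ILL with control in a fit over 13066 tested genes. A member was called higher or lower at a Benjamini-Hochberg adjusted p under 0.05 in the quasi-likelihood test of edgeR. It was called a differentially expressed gene (DEG) when the fold change was also above 2 or under 0.5. All 10 members were tested. Of them 5 were called higher, against 36.2% of all tested genes, and 4 were called lower, against 36.9% of all tested genes. With calls this common, 9 calls among 10 members are little above what the whole table shows, and the sizes below say more than the count. DEGs numbered 2 among the higher members (FTH1 and SLC40A1), against 12.5% of all tested genes, and 0 among the lower members, against 11.4%. In 9 of 10 members the groups did not overlap, as was true of 75.4% of all tested genes. The median log2 fold change was 0.09 over the members and -0.0012 over all tested genes.

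**Figure D1:**
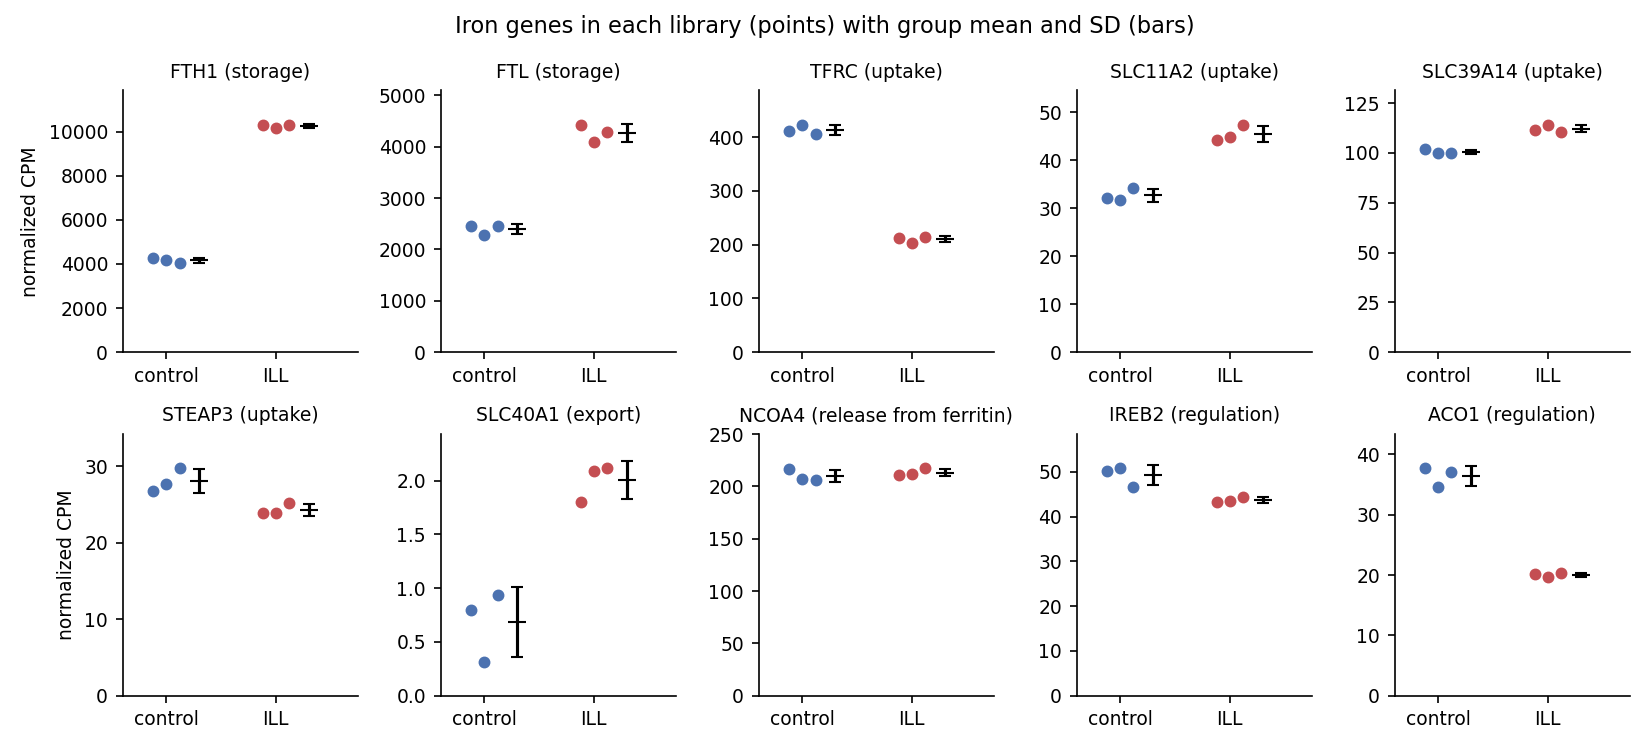
Normalized CPM (linear axes from 0) of each of the 10 iron genes in the 3 control and 3 ILL libraries, with points for libraries and bars for the group mean and SD. The FTH1, FTL and SLC40A1 points with ILL all lie above the control points, the TFRC and ACO1 points all lie below them, and the NCOA4 points overlap.

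Ferritin stores iron in a mineral core. FTH1, its heavy chain with ferroxidase activity, lies on chromosome 11 from 61959718 to 61967660 (GRCh38, minus strand). It stood at 4260, 4168 and 4041 normalized CPM in control replicates 1 to 3 and at 10279, 10148 and 10312 normalized CPM in ILL replicates 1 to 3. Every ILL library lay far above every control library, and both groups were tight. The means were 4157 ± 110.0 CPM (SD, n = 3) in controls and 10246 ± 86.5 CPM (SD, n = 3) with ILL. The log2 fold change was 1.30 (standard error 0.04, 95% interval 1.22 to 1.39), with an adjusted p of 5.8e-19 from edgeR's quasi-likelihood test, and it was higher than that of 91.2% of the genes tested. By number of counts FTH1 ranked 6, 6 and 8 among all genes in the controls and 3 in each ILL library. In RNA from whole cultures, a change in each cell and a change in the share of cells that express a gene cannot be told apart.

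FTL, the light chain that favours nucleation of the iron core, lies on chromosome 19 from 48965301 to 48966878 (GRCh38, plus strand). It was measured at 2453, 2286 and 2447 normalized CPM in controls and 4430, 4084 and 4295 normalized CPM with ILL. The lowest ILL library exceeded the highest control library by a wide margin, as for the heavy chain. The means of 2396 ± 94.7 and 4270 ± 175 CPM (SD, n = 3 each) gave a log2 fold change of 0.83 (standard error 0.05, 95% interval 0.74 to 0.93), below the 2-fold line, with an adjusted p of 3.6e-14 from edgeR's quasi-likelihood test. Its rank by counts moved from 21 to 22 in controls to 10 to 11 with ILL. Together the ferritin chains took 0.671 ± 0.0168% of all counts in controls and 1.42 ± 0.0328% with ILL (SD, n = 3 each).

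The ferritin counts carry an added uncertainty. GENCODE 29 names 25 FTH1 and 16 FTL pseudogenes, beside 3 of NCOA4, and none of them is in the count table, and how reads shared with such copies were counted is not given in the sources used here. FTH1 also overlaps BEST1, a chloride channel gene that held 4, 0 and 4 counts in controls and 50, 27 and 20 counts with ILL. Whether counting used strand is not given either, so reads of the overlapping stretch cannot be assigned with certainty, but FTH1 itself had between 142921 and 360602 counts per library.

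TFRC, the transferrin receptor, lies on chromosome 3 from 196027183 to 196082189 (GRCh38, minus strand), and its mRNA carries the 5 elements printed above. Its level was 412, 423 and 406 normalized CPM in controls and 213, 203 and 213 normalized CPM with ILL. Both groups were tight and the ILL libraries sat near the midpoint between 0 and the controls. From means of 413 ± 8.96 and 209.9 ± 5.94 CPM (SD, n = 3 each), the log2 fold change was -0.98 (standard error 0.05, 95% interval -1.08 to -0.88) with an adjusted p of 5.4e-15 from edgeR's quasi-likelihood test. Of all tested genes 12.0% had a lower log2 fold change. The fold of 0.508 missed the DEG cutoff of 0.5 narrowly, and TFRC counted as a DEG when library sizes were not rescaled by TMM, at a log2 fold change of -1.05, and in the fits on FPKM.

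SLC11A2 (DMT1), which moves ferrous iron across the endosomal and apical membranes, lies on chromosome 12 from 50979401 to 51028566 (GRCh38, minus strand). It changed in the opposite direction to TFRC, from 32.2, 31.7 and 34.2 normalized CPM in controls to 44.3, 44.8 and 47.4 normalized CPM with ILL. Every ILL library exceeded every control library. Its log2 fold change of 0.48 (standard error 0.07, 95% interval 0.33 to 0.62) was a 1.39-fold rise, with an adjusted p of 1.1e-06 from edgeR's quasi-likelihood test. SLC11A2 has mRNA forms with and without an iron-responsive element in the 3′ UTR, which counts per gene do not separate, and the pattern used here found none in it.

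SLC39A14 (ZIP14), an importer of iron not bound to transferrin that also carries zinc and manganese, lies on chromosome 8 from 22367249 to 22434129 (GRCh38, plus strand). It differed little, with 101.7, 100.1 and 99.7 normalized CPM in controls and 111.5, 114.2 and 110.6 normalized CPM with ILL. The groups did not overlap, yet the gap was small against their level. On the log2 scale the difference was 0.16 (standard error 0.05, edgeR quasi-likelihood adjusted p = 0.0105). The call was lost with scaling by library size only, at a log2 fold change of 0.09 (adjusted p = 0.136 with edgeR), and in the limma fits on FPKM.

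STEAP3, the ferrireductase that reduces iron in the endosome, lies on chromosome 2 from 119223831 to 119265652 (GRCh38, plus strand). Controls held 26.8, 27.6 and 29.7 normalized CPM and ILL libraries 23.9, 23.8 and 25.1 normalized CPM. The gap between the groups was smaller than the range of the controls. ILL minus control was -0.21 on the log2 scale (standard error 0.08, edgeR quasi-likelihood adjusted p = 0.0224). This call did not hold without control replicate 3 (adjusted p = 0.0986), without ILL replicate 1 (adjusted p = 0.0579) or without ILL replicate 2 (adjusted p = 0.0529), each with edgeR.

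SLC40A1 (ferroportin), which passes ferrous iron out of the cell, lies on chromosome 2 from 189560579 to 189583758 (GRCh38, minus strand). It was the member with the fewest reads, at 31, 11 and 33 counts in control replicates 1 to 3 and 63, 72 and 74 counts in ILL replicates 1 to 3. These correspond to 0.798, 0.313 and 0.933 normalized CPM in controls and 1.80, 2.09 and 2.12 normalized CPM with ILL. Control replicate 2 was the lowest, and the groups did not overlap. The log2 fold change of 1.55 had the widest error of the members (standard error 0.40, 95% interval 0.72 to 2.37), with an adjusted p of 0.00127 from edgeR's quasi-likelihood test. It was higher than that of 93.6% of the genes tested and lay between 1.20 and 1.83 when each library was left out in turn.

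NCOA4, the cargo receptor of ferritinophagy, lies on chromosome 10 from 46005088 to 46030714 (GRCh38, minus strand). Its level was 216, 207 and 206 normalized CPM in controls and 211, 212 and 218 normalized CPM with ILL. The ranges overlapped, unlike those of every other member. Its log2 fold change was 0.02 (95% interval -0.08 to 0.13, edgeR quasi-likelihood adjusted p = 0.69). The interval spans 0, and the sign turned with scaling by library size only and in the FPKM fits, at -0.046 to -0.045.

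ACO1 (IRP1), which switches between aconitase with an iron-sulfur cluster and RNA-binding protein without it, lies on chromosome 9 from 32384603 to 32454769 (GRCh38, plus strand). It stood at 37.7, 34.6 and 37.1 normalized CPM in controls and 20.2, 19.7 and 20.3 normalized CPM with ILL. The ILL libraries were close together and well below all controls. On the log2 scale ACO1 differed by -0.86 (standard error 0.08, 95% interval -1.02 to -0.70, edgeR quasi-likelihood adjusted p = 2.9e-10), and 14.2% of tested genes had a lower one.

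IREB2 (IRP2), the iron regulatory protein that is degraded when iron is plentiful, lies on chromosome 15 from 78437431 to 78501456 (GRCh38, plus strand). It was measured at 50.2, 50.8 and 46.6 normalized CPM in controls and 43.1, 43.4 and 44.4 normalized CPM with ILL. The ILL libraries were lower without overlap, but by little. The difference was -0.17 on the log2 scale (standard error 0.07, edgeR quasi-likelihood adjusted p = 0.0205). Without control replicate 1, control replicate 2 or ILL replicate 1 the call was lost, with adjusted p-values of 0.0663, 0.0754 and 0.0528 from edgeR.

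**Figure D2:**
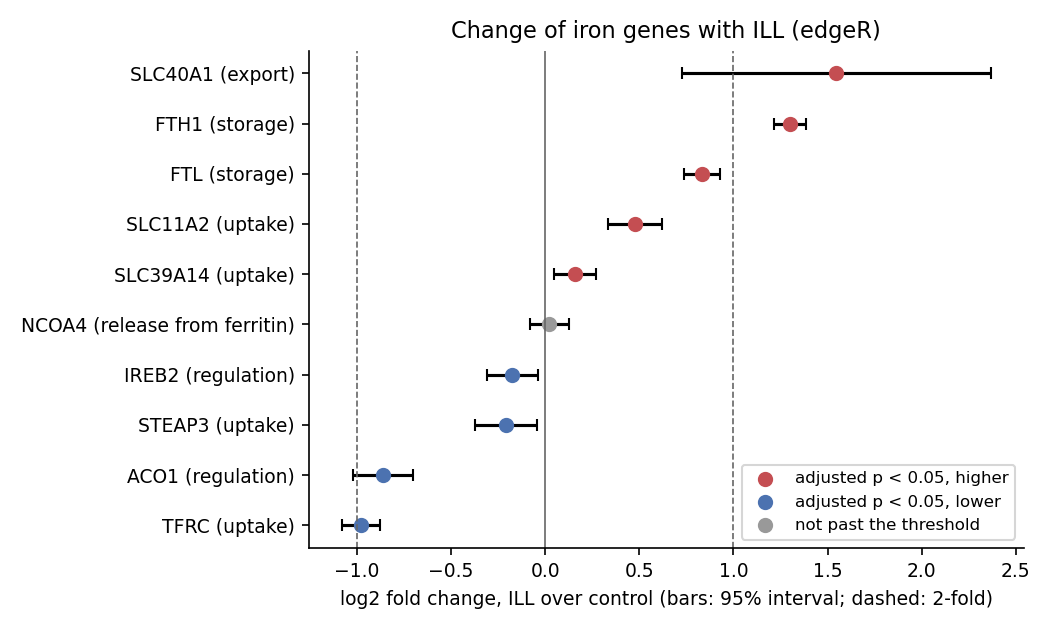
Log2 fold change of each iron gene, ILL over control, with 95% intervals as bars and dashed lines at a 2-fold change in each direction. FTH1 (1.30) lies past the upper line with its whole interval, the SLC40A1 interval (0.72 to 2.37) crosses it, and the TFRC point (-0.98) sits at the lower line.

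Levels of different genes were compared per length, as FPKM. Ferritin dominated the members in both groups, with FTH1 at 3539 ± 110.1 FPKM and FTL at 2817 ± 111 FPKM in controls (SD, n = 3 each). Next in the controls came TFRC at 57.5 FPKM and NCOA4 at 49.2 FPKM, then SLC39A14 at 17.0 FPKM and ACO1 at 10.3 FPKM. The lowest control levels were those of IREB2 at 7.15 FPKM, STEAP3 at 5.89 FPKM, SLC11A2 at 4.43 FPKM and SLC40A1 at 0.194 FPKM. No neighbours in this order overlapped across the 3 control libraries.

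With ILL the top of the order was wider apart, at 8314 ± 113 FPKM for FTH1 and 4785 ± 225 FPKM for FTL (SD, n = 3 each). NCOA4 at 47.6 FPKM now stood above TFRC at 27.8 FPKM, an exchange of places that followed from the lower TFRC level. SLC39A14 kept its place at 18.1 FPKM. IREB2 at 6.04 FPKM and SLC11A2 at 5.88 FPKM overlapped and were not separable. ACO1 at 5.40 FPKM had dropped below both, and STEAP3 at 4.86 FPKM and SLC40A1 at 0.542 FPKM closed the order.

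**Figure D3:**
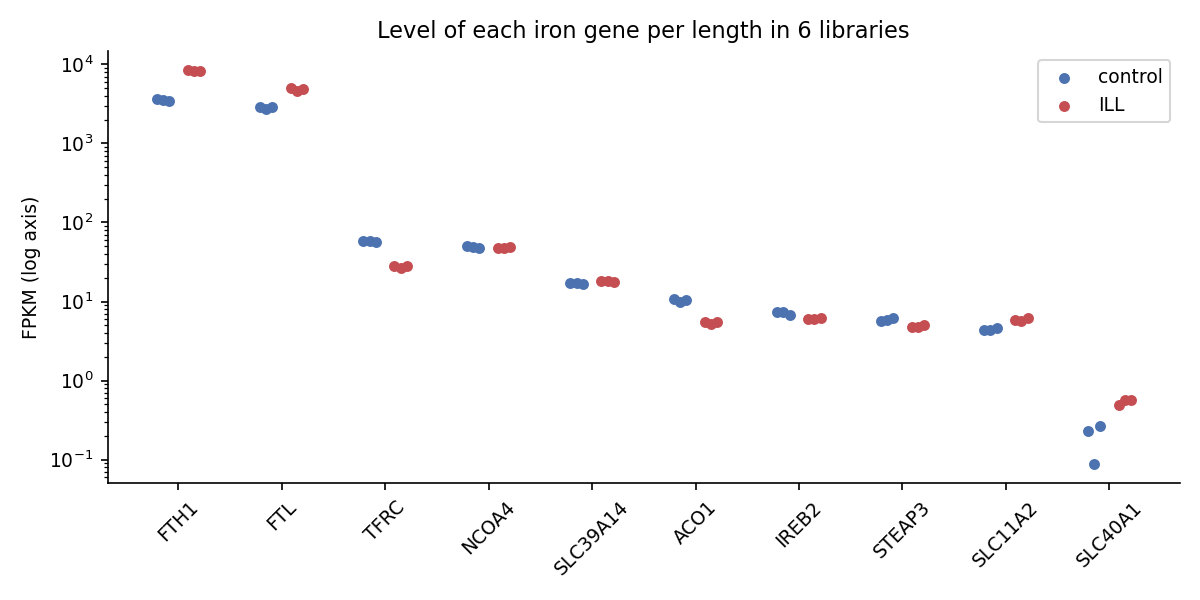
FPKM on a log axis of each iron gene in every control and ILL library, ordered by the mean of the controls. The ferritin chains lie well above all other members in every library, SLC40A1 lies lowest, below 1 FPKM, and TFRC and NCOA4 change places between the groups.

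Ratios of FPKM within a library do not depend on how libraries are scaled against each other. The ratio of FTH1 to FTL was 1.26 ± 0.0621 in controls and 1.74 ± 0.0597 with ILL (SD, n = 3 each), a difference of 0.47 on the log2 scale. The heavy chain mRNA thus rose more than the light chain mRNA, by 1.38-fold, and no ILL library overlapped a control library. The ratio of TFRC to FTH1 fell from 0.0163 ± 0.000418 to 0.00335 ± 6.7e-05 (SD, n = 3 each). Put the other way, there were 61.5 ± 1.60 units of FTH1 per unit of TFRC in controls and 299 ± 6.08 with ILL, a 4.86-fold shift between these genes.

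The ratio of IREB2 to ACO1 was 0.696 ± 0.0552 in controls and 1.12 ± 0.0188 with ILL (SD, n = 3 each). ACO1 mRNA was therefore the more abundant per length in controls and IREB2 mRNA with ILL, a 1.61-fold shift. For all 3 ratios the two-sided exact permutation test over the 20 divisions of the libraries gave p = 0.1, which is the smallest it can give with 3 against 3 and stays 0.1 after adjustment over the 3 ratios, so this design cannot reach 0.05. Leaving out each library in turn kept the log2 differences at 0.43 to 0.50 for FTH1 to FTL, -2.30 to -2.26 for TFRC to FTH1 and 0.64 to 0.75 for IREB2 to ACO1.

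**Figure D4:**
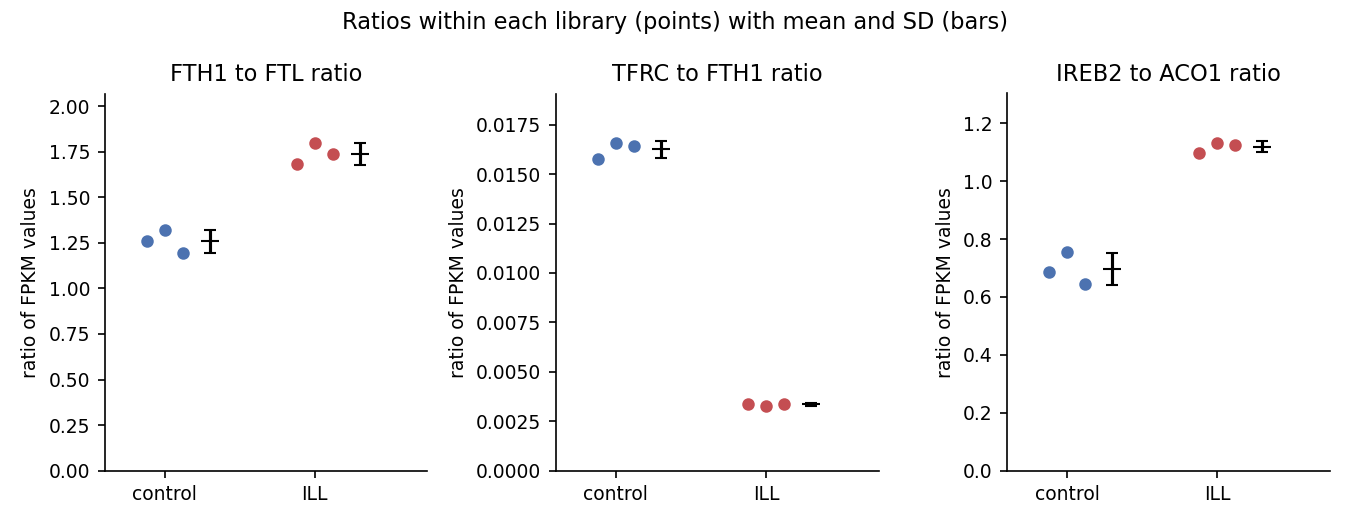
Ratios of FPKM values within each library (linear axes from 0) for FTH1 to FTL, TFRC to FTH1 and IREB2 to ACO1, with points for libraries and bars for mean and SD. Control and ILL libraries do not overlap in any of the 3 ratios, and the means go from 1.26 to 1.74, from 0.0163 to 0.00335 and from 0.696 to 1.12.

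The members were set among 107 further genes of iron and heme handling in 9 lists, of which 95 were tested. Of these, 31 were called higher and 38 lower, near the 36.2% and 36.9% of all tested genes, and the groups did not overlap in 69, beside 75.4% of all tested genes. Their median log2 fold change was -0.02. The lists differed in balance, and each is described by its counts without a test of the list. Values in parentheses after gene names are log2 fold changes.

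In the list of iron import and reduction 7 of 12 tested genes were higher and 2 lower, beside 36.2% and 36.9% of all tested genes, with a median of 0.44. Among the uptake members SLC11A2 and SLC39A14 were likewise higher, and TFRC and STEAP3 were lower. STEAP4, a metalloreductase, rose 5.27-fold (log2 fold change 2.40), and STEAP2 of the same family and LCN2, a carrier of iron bound to siderophores, rose by 0.74 and 0.54 on the log2 scale. SLC39A8 (ZIP8), a close relative of SLC39A14, went the other way, from 60.4, 58.4 and 54.8 normalized CPM in controls to 17.2, 16.5 and 16.7 normalized CPM with ILL. On the log2 scale SLC39A8 differed by -1.78 (standard error 0.07, edgeR quasi-likelihood adjusted p = 7.7e-17) beside 0.16 for SLC39A14. PCBP2, a cytosolic iron chaperone, fell by 0.24 on the log2 scale.

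In iron and heme export, SLC40A1 was accompanied by HEPHL1, a ferroxidase related to hephaestin, at a log2 fold change of 2.82 (standard error 0.30). HEPHL1 was also low, at 16 to 30 counts in controls and 149 to 174 with ILL. The heme exporter FLVCR1 (-1.48) and the transporter ABCG2 (-1.32), which also carries heme, fell. Of the 5 tested genes of this list 1 was higher and 2 lower, beside 36.2% and 36.9% of all tested genes. The median was 0.07. Of the 10 tested genes of iron sensing and the hepcidin axis, 4 were higher and 2 lower, beside those same shares. BMP2 (2.04) and BMP6 (1.92), ligands that drive hepcidin transcription in the liver, and their receptor ACVR1 (0.997) rose. BMP6 was low, at 21 to 53 counts in controls and 118 to 132 with ILL. The hepcidin gene HAMP was almost without reads, at 0 to 1 counts in controls and 1 to 6 with ILL, and was not tested. FBXL5 (-0.37) and HERC2 (-0.50), ubiquitin ligases that act on IREB2 and NCOA4, respectively, fell.

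Heme synthesis was split, with 2 of 10 tested genes higher, 6 lower and a median of -0.27. Over all tested genes 36.2% were higher and 36.9% lower. The first and last enzymes, ALAS1 (0.67) and FECH (0.97), rose, and UROD (-0.65) and the mitochondrial transporter ABCB10 (-0.68) fell. Among heme breakdown genes 3 of 5 were higher and 1 lower, beside those same shares, with a median of 0.73. HMOX1, the inducible heme oxygenase that frees iron from heme, went from 2.42, 2.42 and 2.23 normalized CPM in controls to 14.6, 12.5 and 9.27 normalized CPM with ILL. That is a 5.12-fold rise (log2 fold change 2.36, standard error 0.17, edgeR quasi-likelihood adjusted p = 9.9e-12) at a level far below that of the ferritin chains, while HMOX2, the constitutive enzyme, fell by 0.41 on the log2 scale.

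Iron-sulfur clusters, such as the one ACO1 carries, are assembled by mitochondrial and cytosolic proteins. In the mitochondrial list 13 of 24 tested genes were lower and 2 higher, with a median of -0.28, beside 36.9% of all tested genes lower and 36.2% higher. CISD1 (-1.36), an iron-sulfur protein of the outer mitochondrial membrane, and BOLA3 (-1.27), an assembly factor, were among its DEGs. In the cytosolic list 8 of 11 were lower and 1 higher, with a median of -0.36, led by NUBP2 (-0.81) and CIAO2A (-0.73), against a rise of CIAO3 (0.80). The decreases of the cytosolic list were all smaller than 2-fold.

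On the lipid peroxidation side of ferroptosis 8 of 13 tested genes were higher and 3 lower, with a median of 0.29. This list mixes genes that promote lipid peroxidation with genes that counter it. Its count and median therefore give no direction for lipid peroxidation, which was not measured. Over all tested genes 36.2% were higher and 36.9% lower. SLC7A11 (2.94) and SLC3A2 (1.26), the chains of the cystine importer, rose, as did the lipoxygenase ALOX5 (1.25). DHODH (-1.35) and the phospholipid enzyme LPCAT3 (-0.67) fell, and GPX4, the peroxidase that detoxifies lipid peroxides, did not pass the test at a log2 fold change of 0.08 (edgeR quasi-likelihood adjusted p = 0.142). Of 5 other genes with a known iron-responsive element in their mRNA 3 were higher, among them CDC42BPA (1.05) and EPAS1 (0.59), and PFN2 (-0.18) was lower.

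**Figure D5:**
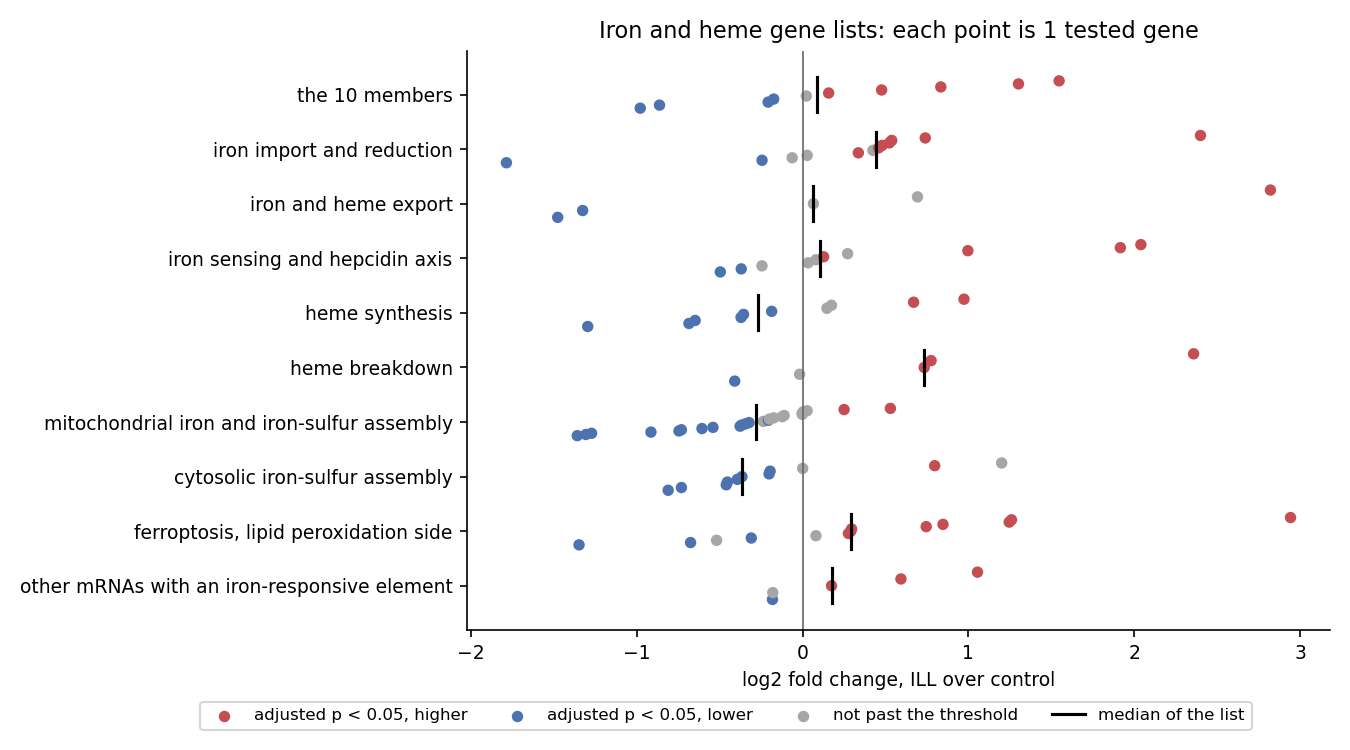
Log2 fold change, ILL over control, of each tested gene of the 10 members and of 9 iron and heme lists, with colours for genes called higher or lower and a black bar for the median of each list. Heme breakdown (median 0.73) and iron import (0.44) lie toward higher values and the cytosolic (-0.36) and mitochondrial (-0.28) iron-sulfur lists toward lower values, with wide spread in each list.

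RefSeq promoters (GRCh38.p14, 250 bases before to 50 after the start) were given for 8 of the 10 members, without FTH1 and SLC39A14. These members had 13 promoters in all. The promoters were searched on both strands for 4 motifs. TGACNNNGC, the core of the antioxidant response element, was in 13.3% of 35116 promoters and in 1 of the 13 member promoters, 1 of NCOA4. The window of that promoter starts at position 46019950 of chromosome 10, inside the gene as placed above. ACGTG, the core of the hypoxia response element, was in 21.4% of promoters and in 2 of the 13 member promoters, 1 of FTL and 1 of TFRC. CACGTG, an E-box that contains ACGTG, was in 7.26% and TGATGCAA, an ATF4 element, in 0.866%, and neither was in a member's promoter. These matches describe letters in a short window only.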

How the data were processed

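For 6 libraries the authors deposited unnormalized counts listed by gene symbol, and FPKM values for the same libraries in which counts are scaled by gene length and library total. RNA was extracted with TRIzol and sequenced from Illumina mRNA libraries. The submitters' processing notes name GRCh38 and DESeq2, while the aligner, counting program, annotation and strandedness are not given in the sources used here.

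Counts were filtered with filterByExpr, scaled by TMM and tested with edgeR 4.0.16 (quasi-likelihood test, R 4.3.3), with Benjamini-Hochberg adjustment over all 13066 tested genes. The biological coefficient of variation was 0.0717. For a DEG the fold change also had to exceed 2 or be less than 0.5, as in the study's methods. Counting noise alone did not account for the spread of replicates (chi-square per degree of freedom 5.09 to 11.5). Ratios of FPKM were compared by exact permutation tests. On simulated counts for 12787 genes the fit recovered 100% of 200 changed genes, and 3.38% of its calls were false. The changed genes were well expressed, with folds of exactly 2 or 0.5, and every gene had the same coefficient of variation. These rates therefore do not cover levels as low as that of SLC40A1 or changes as small as those of SLC39A14, STEAP3 and IREB2. Nor do they cover a table in which most genes are called.

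The members and lists were chosen with earlier results of these data known, and the lists were written by hand. From each further list, the text could name at most 3 called genes at each end by log2 fold change, where the mean reached 1 CPM and the groups did not overlap. GPX4, HAMP, the cell type markers, BEST1 and the blood and liver genes of the closing section were named outside this rule, after their values were seen. Some genes that the rule names are not reported here. Alternatives were DESeq2 size factors, library size only, other count filters, DESeq2 1.42.0, a replicate block, limma 3.58.1 on log2 of FPKM plus 1 or plus 0.1, and each library left out. Gene positions and UTRs come from GENCODE 29 on GRCh38.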

Additional observations from a re-analysis of the deposited data

How the results depend on the processing

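FTH1, FTL, TFRC, SLC11A2 and ACO1 kept their direction and call in 15 of 15 alternatives, and SLC40A1 in the 13 that tested it, although its log2 fold change was 0.37 with limma on log2(FPKM + 1) without a filter, where a pseudocount of 1 exceeds its level. The number of members called higher was 5, but 4 with library size only and with limma without a filter, where SLC39A14 was lost, and 3 in both limma fits with an FPKM filter, which also left SLC40A1 untested. Members called lower ranged from 2 to 4 over the fits that left out 1 library, with 2 without ILL replicate 1. DEGs higher among the members numbered 1 in the 3 limma fits on FPKM, and DEGs lower numbered 1 (TFRC) there and with library size only. NCOA4 turned to -0.046 with library size only and to -0.045, -0.046 and -0.045 in the 3 limma fits. Over all genes, the median change was -0.07 with library size only, and with limma it was -0.09 at a pseudocount of 1 and -0.10 at 0.1 (log2 scale, FPKM filter). The further lists gave 27 to 33 genes called higher and 37 to 40 lower. Over the tested genes, same-numbered control and ILL libraries did not deviate together (correlations of 0.01, -0.02 and -0.02), so the numbers were not taken as pairs. HBB, which was not tested, had reads only in replicate 1 of both groups, as given in the last section. With the replicate number as a block, 5 members were called higher and 4 lower, and no member's call changed. SLC40A1 rests on 11 to 74 counts per library, the fewest of the members.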

Other observations

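Some blood and liver transcripts that bear on iron were uneven between libraries in a way the groups do not describe. HBB, the beta chain of hemoglobin, held 132 counts (3.40 normalized CPM) in control replicate 1 and 146 counts (4.17 normalized CPM) in ILL replicate 1, and 0 counts in each of the other 4 libraries. TF, the plasma iron carrier that TFRC binds, was at 1.70 to 2.88 normalized CPM in controls and at 4.55 normalized CPM in ILL replicate 3, with the other ILL libraries inside the range of the controls. ALB, the plasma protein albumin, stood at 15.5 normalized CPM in ILL replicate 3 against 4.55 to 6.97 in the other 5 libraries. It was called higher with ILL (log2 fold change 0.69, edgeR quasi-likelihood adjusted p = 0.0115), although the groups overlapped and only ILL replicate 3 stood apart. The source of these reads was not tested. TFRC and the ferritin chains kept their calls when any of these libraries was left out.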
